A study of Mus musculus with 9 samples.

Results

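The genes described here are 37 interferon response genes, measured in isolated mouse glomeruli on one-colour microarrays. They were taken as every non-control probe whose gene name on the array is one of 37 chosen symbols, which gave 65 of 56605 probes. All 37 genes had a probe, and 35 of them passed a filter on dim probes and were tested among 24151 features. Oas3 and Mx1 did not pass. The mice were male, on the BTBR background and 22 weeks old. One group was BTBR wild type on vehicle food, one was BTBR ob/ob on vehicle food, and one was BTBR ob/ob on food with enarodustat for 18 weeks, with 3 arrays in each group. The ob/ob mouse lacks working leptin in the whole body and becomes obese and diabetic, and on the BTBR background it is used as a model of diabetic kidney disease. Enarodustat blocks prolyl hydroxylase enzymes, so that hypoxia-inducible factors escape degradation. No wild-type mice on enarodustat were part of the series, and the labels do not say whether an array holds 1 animal or a pool, so the p-values given below measure the spread between these samples.

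Interferons are cytokines, and those of type I are released by cells that detect viral or misplaced nucleic acid. Type I interferons act through the receptor IFNAR1 and IFNAR2 and a transcription factor complex that includes STAT2 and IRF9 and binds the interferon-stimulated response element. Type II interferon acts through IFNGR1 and IFNGR2 and leads to binding at the gamma-activated site, and many target genes respond to both. In the kidney these genes are known to be expressed in resident cells of the glomerulus as well as in leukocytes.

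The promoters of 6 members are shown because they carry the sequence features by which the list is usually known, or lack them. The RefSeq promoter windows of build GRCm38.p6, which run from 250 bases before to 50 bases after a transcription start, were searched on both strands for the core of the response element, GAAA followed by any 2 bases and GAAA again, and for the gamma-activated site, TTCNNNGAA. Of each window only a stretch that ends at the start is printed, with bases farther upstream and those after the start left out, 5′ to 3′ on the gene's own strand, and capitals mark the matches to either motif, which overlap in Bst2.
Oasl2: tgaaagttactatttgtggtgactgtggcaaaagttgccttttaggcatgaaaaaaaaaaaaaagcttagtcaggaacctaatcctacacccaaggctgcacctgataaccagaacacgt
Bst2: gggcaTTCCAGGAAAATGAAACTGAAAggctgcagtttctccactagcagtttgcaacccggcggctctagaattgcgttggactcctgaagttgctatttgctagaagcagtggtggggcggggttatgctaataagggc
Ifit3: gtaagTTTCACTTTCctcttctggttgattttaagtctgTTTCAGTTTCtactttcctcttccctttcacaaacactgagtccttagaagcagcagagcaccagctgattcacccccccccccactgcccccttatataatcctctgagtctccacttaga
Isg15: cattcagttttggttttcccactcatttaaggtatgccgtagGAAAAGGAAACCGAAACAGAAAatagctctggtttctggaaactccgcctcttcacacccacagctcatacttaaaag
Gbp2: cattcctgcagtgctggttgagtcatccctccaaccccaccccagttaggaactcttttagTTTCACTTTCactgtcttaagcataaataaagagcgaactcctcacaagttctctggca
Irf1: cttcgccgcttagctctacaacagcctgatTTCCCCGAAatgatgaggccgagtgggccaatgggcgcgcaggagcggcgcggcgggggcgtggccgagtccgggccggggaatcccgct
These printed stretches lie at chr5:114896814-114896933 on the plus strand for Oasl2, chr8:71537473-71537613 on the minus strand for Bst2 and chr19:34583368-34583528 on the plus strand for Ifit3. Those of Isg15, Gbp2 and Irf1 lie at chr4:156200819-156200938 on the minus strand, chr3:142620543-142620662 on the plus strand and chr11:53769894-53770013 on the plus strand.

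Isg15 held 3 overlapping copies of the response element core, the first starting 78 bases before the transcription start. Bst2 and Ifit3 held 2 copies each and Gbp2 held 1, while Irf1 held the gamma-activated site alone and Oasl2 held neither motif in its window. RefSeq windows were given for 30 of the 37 members, 34 windows in all. The response element core was present for 17 of these 30 genes (56.7%), against 3.99% of the 27025 genes with a window. Besides Bst2, Ifit3, Isg15 and Gbp2, the genes with this core were Ifih1, Ddx58, Stat2, Oas1a, Oas3, Ifitm3, Rsad2, Ifit1, Gbp3, Gbp7, Irgm1, Igtp and Cxcl10. The gamma-activated site was present for 9 of 30 (30.0%), against 9.55% of all genes, and 5 members held both, Bst2, Ifitm3, Oas1a, Gbp7 and Igtp. Dhx58, Mx1, Mx2, Oas2, Parp14, Usp18 and Zbp1 had no window. A match is a run of letters in this window and was not tested as a binding site.

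The 9 arrays were alike in quality. Their 75th percentile signal ranged from 210.5 to 325.4, between 62.3% and 68.4% of probes were well above background, and no spot was saturated. Levels are given as log2 of the processed signal minus the array's 75th percentile, so that 0 is the level of the 75th percentile probe. Arrays of the same group correlated at 0.9731 to 0.9909 over all features. Podocyte markers were bright, and the mean of 6 podocyte markers was 6.21 ± 0.07 in wild type, 5.46 ± 0.07 in ob/ob vehicle and 5.19 ± 0.35 in enarodustat (SD, n = 3). Enarodustat replicate 2 and wild-type replicate 3 stood apart in markers of the proximal tubule, the neighbouring kidney epithelium, with a mean level over 22 markers of 2.26 and 3.40 where the other 7 arrays lay between -2.23 and 0.51. Enarodustat replicate 3 was alone on the second slide and the other 8 arrays were on the first.

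In ob/ob glomeruli on vehicle, the interferon response genes lay above their wild-type level as a list, and 5 of the 35 tested rose significantly. These were Oasl2, of the oligoadenylate synthetase family, the membrane restriction factors Bst2 and Ifitm3, the RNA sensor Ddx58 and the antiviral effector Ifit3, with changes of 1.57-fold to 2.18-fold. No member fell. The call used limma with Benjamini-Hochberg adjustment over all features at an adjusted p under 0.05, by which 4.88% of all features were called higher and 2.66% lower (7.54% in either direction). At an unadjusted p under 0.05 there were 16 members, against 23.5% of all features. Of the members, 34 of 35 had a change above 0, with a median log2 change of 0.51, where 52.2% of all features lay above 0 with a median of 0.02. For 20 members every ob/ob vehicle array was above every wild-type array, which held for 17.8% of all features, and for no member was the order turned round (13% of all features). The list was chosen with earlier results of these data known, so such shares, here and below, describe it and carry no test. The number called depended on single arrays. Removing ob/ob vehicle replicate 1 or one of wild-type replicates 2 and 3 left 2 calls, and removing ob/ob vehicle replicate 2 left 3. There were 8 when enarodustat replicate 2 was removed, 4 of them among these 5, since this array enters this comparison through the shared estimate of the spread. With no filter on dim probes 2 were called, and with array weights 12. With the tubule marker mean as a covariate the call of Oasl2 alone was left, while the median change of the members was 0.77 and 34 of 35 lay above 0.

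Between the ob/ob groups, no member passed the test. No feature of the whole array was called between enarodustat and vehicle in ob/ob mice (percent called 0 of 24151 features). At an unadjusted limma p under 0.05 there were 5 members, Irf1, Irf9, Oasl2, Bst2 and Ifit3, all of them higher, and 7.02% of all features met that limit in either direction. The fitted change was above 0 for 32 of 35 members with a median of 0.37, where 44.8% of all features lay above 0 with a median of -0.03. Every enarodustat array was above every ob/ob vehicle array for 5 members, Irf1, Irf9, Stat2, Oasl2 and Irgm1, against 6.51% of all features, and below for none (9.49% of all features). The size of this difference depended on single arrays, in both directions. Without enarodustat replicate 2 the median was 0.13, 25 of 35 members lay above 0 and none reached an unadjusted p under 0.05. Without ob/ob vehicle replicate 3, the lowest of its group for 25 of 35 members, the median was 0.20, as it was with the tubule marker mean as a covariate. Without enarodustat replicate 3 the median was 0.50, and 10 members had an unadjusted limma p under 0.05.

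Glomeruli of ob/ob mice on enarodustat, set against wild type on vehicle, had 15 of 35 members higher and none lower. They were Ddx58 and Zbp1 among the sensors, Irf1, Irf7 and Irf9 among the transcription factors, Oasl2, Bst2, Ifitm3 and Ifit3 among the effectors, and Usp18, Gbp2, Psmb8, Ifi35, Xaf1 and Parp14. Of all features 6.11% were called higher and 4.1% lower in this comparison (10.2% in either direction), and at an unadjusted p under 0.05 there were 29 members, against 26.8% of all features. The change was above 0 for 34 of 35 members, against 49.3% of all features, with a median of 0.87 against -0.01. For 30 members every enarodustat array was above every wild-type array, against 16.9% of all features. This comparison differs from the others in both genotype and treatment and shares its arrays with them. Of these 15 calls, 8 were left when wild-type replicate 1 was removed, and again 8 for ob/ob vehicle replicate 2. With wild-type replicate 3 removed 7 were left, and with wild-type replicate 2 removed 6 were, while Dhx58 was gained. With no filter on dim probes 7 were left. When the pair of arrays highest in tubule markers was removed, which was tried after the data had been seen, 5 remained: Zbp1, Irf1, Oasl2, Bst2 and Ifitm3. The count rose in other settings. With the tubule marker mean as a covariate 19 were called, 13 of them among these 15, and with array weights 20 were. Of the 15 genes called, 12 had a promoter window and 5 of these held the response element core, Ddx58, Bst2, Ifitm3, Ifit3 and Gbp2. All 5 genes that rose in ob/ob vehicle are among the 15, and the 4 of them with the core are the same genes without Gbp2. Over all members with a window 17 of 30 held it.

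**Figure D1:**
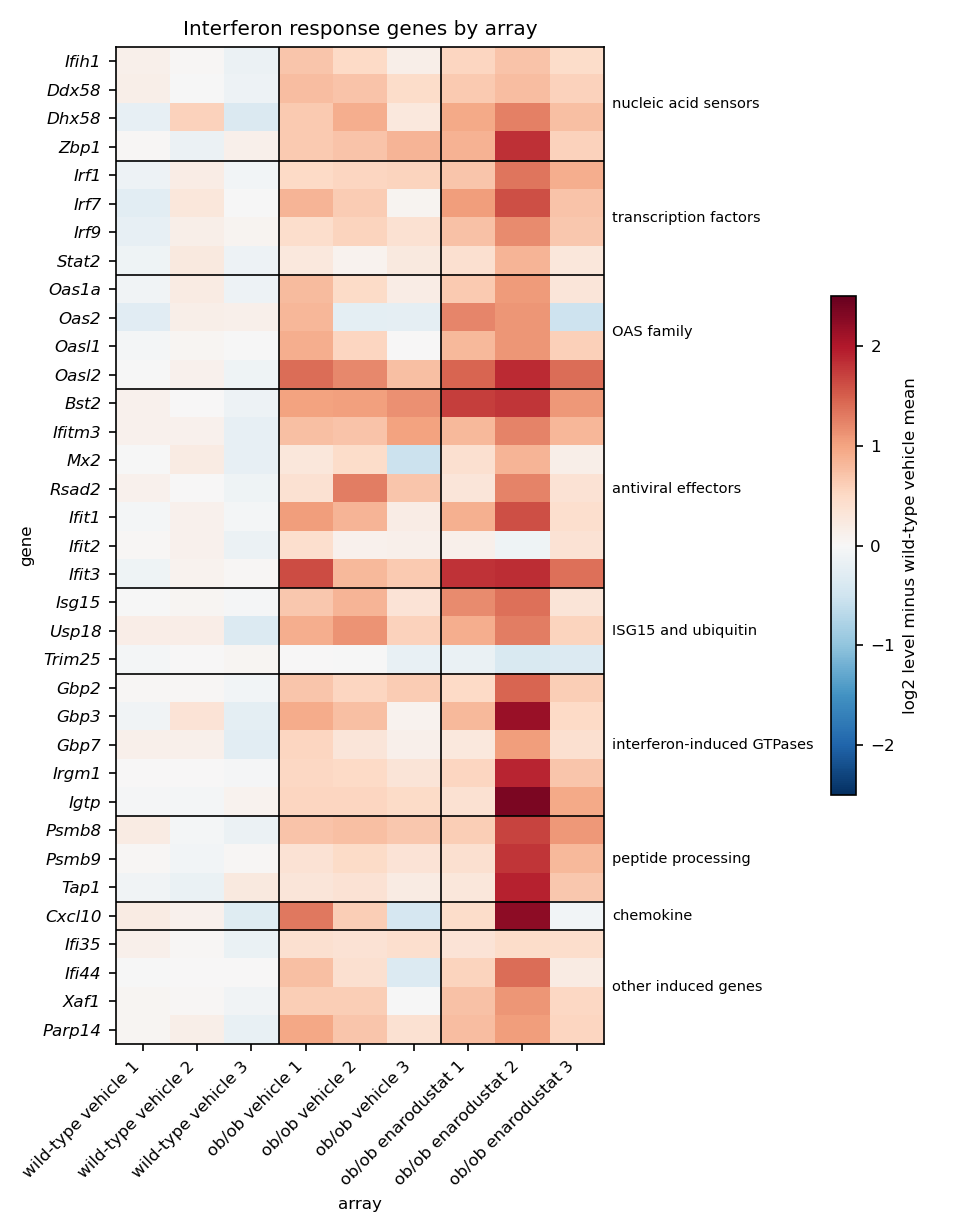
Heat map of the 35 tested interferon response genes, grouped by role, on each of the 9 arrays, with colour giving the log2 level minus the mean of the wild-type vehicle arrays. Most genes are above that mean on the ob/ob arrays, and enarodustat replicate 2 is the highest of the 9 arrays for 31 of the 35 genes.

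**Figure D2:**
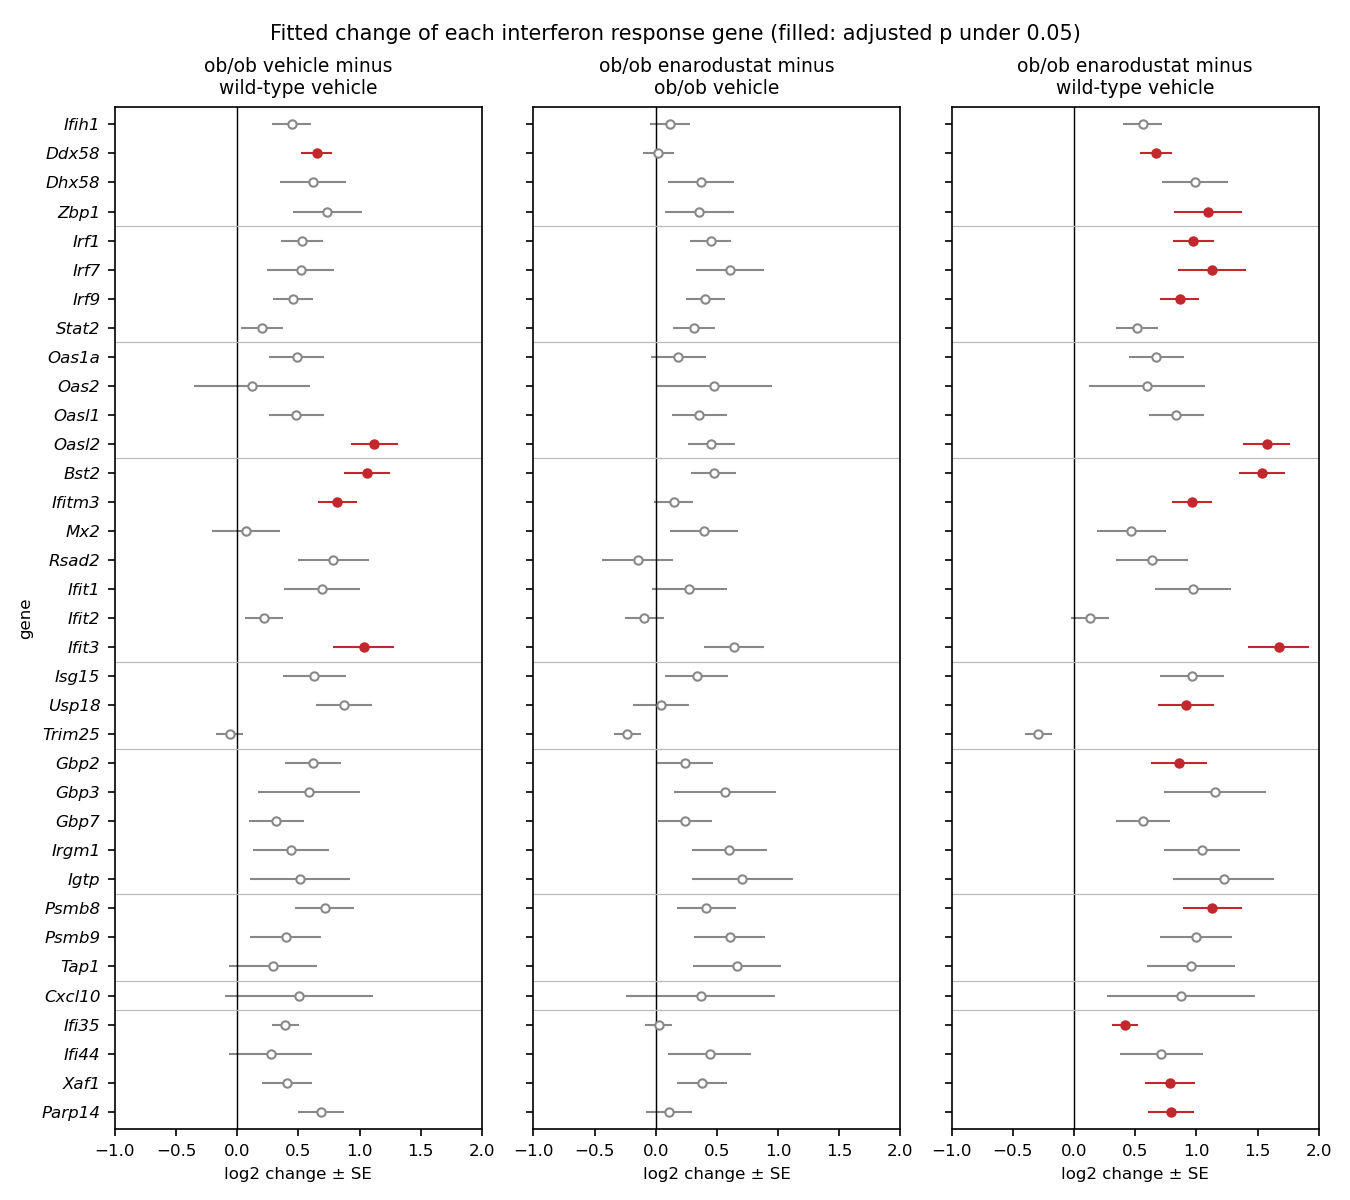
Fitted log2 change and its SE for each of the 35 genes in the 3 comparisons, with filled points for an adjusted p under 0.05. The left panel has 5 filled points, the middle panel none and the right panel 15.

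The group means followed 1 order in most of the list. For 32 of the 35 members the mean was lowest in wild type, intermediate in ob/ob vehicle and highest in enarodustat. For 2, Rsad2 and Ifit2, ob/ob vehicle was highest, and for Trim25 the order was turned round. The mean over the 35 members was 0.94, 1.04 and 0.86 on the wild-type arrays, 1.65, 1.54 and 1.25 on the ob/ob vehicle arrays and 1.65, 2.26 and 1.49 on the enarodustat arrays, for replicates 1 to 3. The wild-type arrays did not overlap with either ob/ob group in this mean, and the ob/ob groups overlapped with each other.

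Of the nucleic acid sensors, Ddx58, which encodes RIG-I and recognises viral RNA with a free end, had levels of 1.58, 1.43 and 1.30 on the wild-type arrays, 2.21, 2.14 and 1.90 on the ob/ob vehicle arrays and 2.09, 2.21 and 2.01 on the enarodustat arrays. Both ob/ob groups lay above wild type without overlap, and they overlapped fully with each other. Ddx58 rose by 0.65 ± 0.13 on the log2 scale in ob/ob vehicle (SE, limma adjusted p = 0.0196) and was 0.67 ± 0.13 higher in enarodustat than in wild type (adjusted p = 0.0153), while the change between the ob/ob groups was 0.02 ± 0.13. It was read from a probe at chr4:40151893-40151952 on the minus strand (mm9), the brightest of 4, and that probe alone was called, with changes of 0.24 to 0.65 over the 4 in ob/ob vehicle. The first call did not survive the removal of any one of wild-type replicates 2 and 3 and ob/ob vehicle replicates 1 and 2 (adjusted p from 0.0590 to 0.0774), nor the second that of wild-type replicate 2 (adjusted p = 0.0544).

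Zbp1, a sensor of left-handed nucleic acid that can start cell death, had levels of -2.73, -2.92 and -2.64 in wild type, -2.12, -2.04 and -1.92 in ob/ob vehicle and -1.89, -0.93 and -2.19 in enarodustat. The wild-type arrays were below all others, and enarodustat replicate 2 was about 1 log2 unit above the rest of its group. Its change was 0.74 ± 0.28 in ob/ob vehicle (adjusted p = 0.159), and it was 1.09 ± 0.28 higher in enarodustat than in wild type (adjusted p = 0.0440). That call was lost without any one of the wild-type arrays, any one of the ob/ob vehicle arrays or enarodustat replicate 1 (adjusted p from 0.0646 to 0.128). The remaining sensors, Ifih1, which encodes MDA5, and Dhx58, which encodes LGP2, were not called, with changes in ob/ob vehicle of 0.45 ± 0.16 and 0.62 ± 0.27 and against wild type in enarodustat of 0.56 ± 0.16 and 0.99 ± 0.27. A second probe of Ifih1 gave -0.03 in ob/ob vehicle.

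Among the transcription factors, Irf1, which is induced by interferon gamma and drives many of its targets, had levels of 3.10, 3.42 and 3.16 in wild type, 3.72, 3.76 and 3.79 in ob/ob vehicle and 3.91, 4.56 and 4.14 in enarodustat. The 3 groups did not overlap. Its change was 0.53 ± 0.17 in ob/ob vehicle (adjusted p = 0.104) and 0.45 ± 0.17 from vehicle to enarodustat (adjusted p = 0.707), and neither passed the test. Between wild type and enarodustat it was 0.98 ± 0.17 higher, or 1.97-fold (adjusted p = 0.0113), and this call held without each array in turn. Both of its probes were called, at 0.98 and 1.08. The probe used lies at chr11:53590746-53590805 on the plus strand (mm9).

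Irf9, the DNA-binding part of the type I complex, had levels of 1.65, 1.99 and 1.91 in wild type, 2.29, 2.40 and 2.22 in ob/ob vehicle and 2.58, 3.03 and 2.51 in enarodustat, again without overlap between any of the groups. It was 0.46 ± 0.16 higher in ob/ob vehicle than in wild type (adjusted p = 0.133), and 0.86 ± 0.16 higher in enarodustat than in wild type (adjusted p = 0.0144). Irf7, which amplifies the production of type I interferon, had levels of 2.24, 2.78 and 2.49 in wild type, 3.35, 3.14 and 2.56 in ob/ob vehicle and 3.55, 4.11 and 3.22 in enarodustat. Its ob/ob vehicle replicate 3 lay within the wild-type range. The change of Irf7 was 0.52 ± 0.28 in ob/ob vehicle (adjusted p = 0.305) and 1.13 ± 0.28 between wild type and enarodustat (adjusted p = 0.0382). The latter call was lost without any one of the wild-type arrays, ob/ob vehicle replicate 2, enarodustat replicate 1 or enarodustat replicate 2 (adjusted p from 0.0578 to 0.0998). A second probe of Irf7 changed by 0.21 in ob/ob vehicle. Between wild type and enarodustat it changed by 0.90 (limma on all probes, adjusted p = 0.0937), without a call. Stat2, which brings the activating domain to the complex, had levels of 2.01, 2.34 and 1.97, then 2.37, 2.20 and 2.35, then 2.52, 2.96 and 2.40 in the same order of groups. Its enarodustat arrays lay above all others, and no change of Stat2 was called (0.20 ± 0.17, 0.32 ± 0.17 and 0.52 ± 0.17 in the 3 comparisons, adjusted p from 0.0953 to 0.752).

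The oligoadenylate synthetases make the short oligoadenylates that activate RNase L, and Oasl1 and Oasl2 are the synthetase-like members of the family. Oasl2 had levels of 0.80, 0.92 and 0.71 in wild type, 2.21, 2.02 and 1.56 in ob/ob vehicle and 2.27, 2.68 and 2.21 in enarodustat. All ob/ob arrays were far above wild type, and the enarodustat arrays began where ob/ob vehicle ended, with the lowest of the former and the highest of the latter both at 2.21 to this precision. Oasl2 rose 2.18-fold in ob/ob vehicle (log2 change 1.12 ± 0.19, adjusted p = 0.0114). It was 2.98-fold higher in enarodustat than in wild type (1.58 ± 0.19, adjusted p = 0.00359), and both calls held in all 23 settings, the main fit among them. From vehicle to enarodustat its change was 0.45 ± 0.19 (adjusted p = 0.707). Its probe lies at chr5:115362168-115362227 on the plus strand (mm9).

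Oas1a had levels of 1.59, 1.89 and 1.56 in wild type, 2.47, 2.16 and 1.86 in ob/ob vehicle and 2.32, 2.75 and 1.98 in enarodustat. Its enarodustat arrays lay above wild type, but one ob/ob vehicle array did not, and none of its changes was called (0.48 ± 0.23 in ob/ob vehicle, adjusted p = 0.239, and 0.67 ± 0.23 between wild type and enarodustat, adjusted p = 0.0988). The Oas1 genes are close copies of each other, and whether the probe binds only Oas1a was not tested. Oasl1 changed by 0.48 ± 0.23 and 0.84 ± 0.23 in the same comparisons and Oas2 by 0.12 ± 0.47 and 0.60 ± 0.47, without a call. No array had the probe of Oas3 well above background.

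The antiviral effectors act on different steps of a virus's life, and 3 of the 7 tested rose in ob/ob vehicle. Bst2, or tetherin, which holds budding particles at the cell surface, had levels of 1.84, 1.74 and 1.61 in wild type, 2.73, 2.76 and 2.88 in ob/ob vehicle and 3.46, 3.51 and 2.81 in enarodustat. All ob/ob arrays were above wild type, and enarodustat replicates 1 and 2 were above all ob/ob vehicle arrays while replicate 3 was among them. Bst2 rose 2.09-fold in ob/ob vehicle (1.06 ± 0.19, adjusted p = 0.0124) and was 2.90-fold higher in enarodustat than in wild type (1.54 ± 0.19, adjusted p = 0.00354). Its change between the ob/ob groups was 0.47 ± 0.19 (adjusted p = 0.707). Its single probe lies at chr8:74058603-74058662 on the minus strand (mm9).

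Ifitm3, which hinders the fusion of viruses with endosomes, had levels of 5.31, 5.32 and 5.01 in wild type, 5.96, 5.92 and 6.22 in ob/ob vehicle and 6.03, 6.46 and 6.05 in enarodustat. The ob/ob groups overlapped with each other and lay above wild type. It rose 1.76-fold in ob/ob vehicle (0.82 ± 0.16, adjusted p = 0.0195) and was 1.95-fold higher in enarodustat than in wild type (0.97 ± 0.16, adjusted p = 0.00987). The first of these calls did not survive the removal of any one of wild-type replicates 2 and 3 and ob/ob vehicle replicates 1 and 3 (adjusted p from 0.0508 to 0.0689). Its probe lies at chr7:148195489-148195548 on the minus strand (mm9).

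Ifit3, of the family that binds foreign RNA ends and its partner proteins, had levels of 1.36, 1.55 and 1.50 in wild type, 3.10, 2.29 and 2.13 in ob/ob vehicle and 3.28, 3.31 and 2.85 in enarodustat. Wild type lay below both ob/ob groups, with ob/ob vehicle replicate 1 within the enarodustat range. Ifit3 rose 2.05-fold in ob/ob vehicle (1.03 ± 0.25, adjusted p = 0.0425), a call that was lost without any single array other than ob/ob vehicle replicate 3 (adjusted p from 0.0507 to 0.110). It was 3.19-fold higher in enarodustat than in wild type (1.67 ± 0.25, adjusted p = 0.00692). Its probe lies at chr19:34663105-34663164 on the plus strand (mm9). Ifit3b is a near-identical neighbour, and its own probe changed by 0.93 ± 0.32 (adjusted p = 0.125) and 1.63 ± 0.32 (adjusted p = 0.0177), and whether the probe of Ifit3 binds both was not tested.

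Ifit1 had levels of -1.39, -1.23 and -1.39 in wild type, -0.30, -0.48 and -1.14 in ob/ob vehicle and -0.45, 0.27 and -0.92 in enarodustat. Both ob/ob groups lay above wild type, with replicate 3 of each close to it. The change was 0.70 ± 0.31 in ob/ob vehicle (adjusted p = 0.219) and 0.97 ± 0.31 between wild type and enarodustat (adjusted p = 0.0858). Rsad2, or viperin, changed by 0.78 ± 0.29 and 0.64 ± 0.29 in these comparisons and by -0.15 ± 0.29 between the ob/ob groups. Mx2 changed by 0.07 ± 0.28 and 0.47 ± 0.28, and Ifit2 by 0.22 ± 0.16 and 0.13 ± 0.16. None of the 4 was called. Of the 2 probes of Mx1, one was well above background on 2 ob/ob vehicle arrays and the other on 1 enarodustat array, and neither on a wild-type array.

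**Figure D3:**
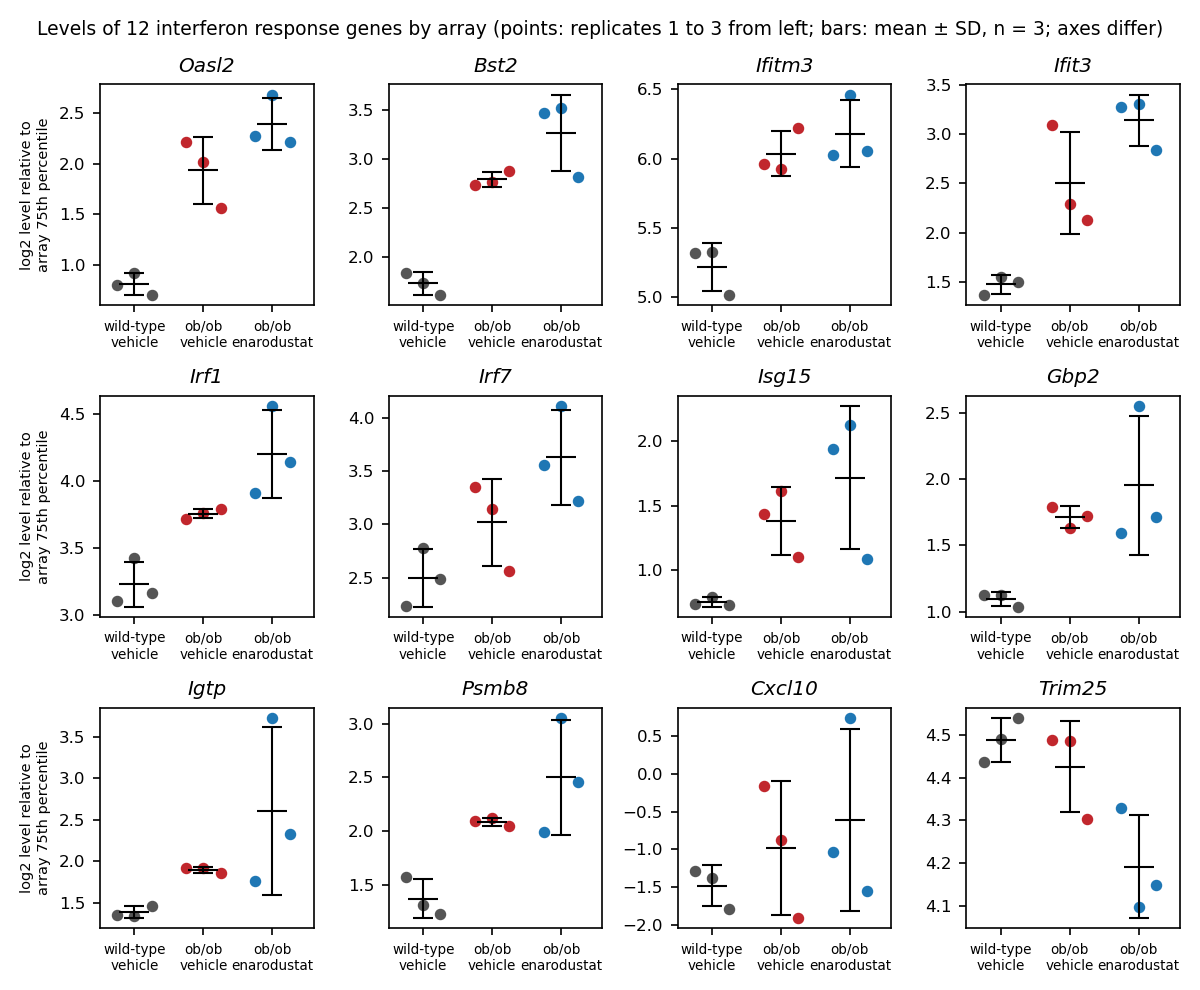
Log2 levels of 12 interferon response genes on each array, with points for replicates 1 to 3 from left to right and bars for the mean and SD (n = 3) of each group, on axes that differ between genes. The ob/ob vehicle arrays are all above the wild-type arrays for Oasl2, Bst2, Ifitm3 and Ifit3, and enarodustat replicate 2 is far above the rest of its group for Igtp and Cxcl10.

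Isg15 encodes the ubiquitin-like protein that is attached to other proteins in interferon-treated cells. Its levels were 0.73, 0.79 and 0.73 in wild type, 1.43, 1.61 and 1.10 in ob/ob vehicle and 1.94, 2.13 and 1.08 in enarodustat. All ob/ob arrays were above wild type, and enarodustat replicate 3 was at the level of the lowest ob/ob vehicle array. Isg15 changed by 0.63 ± 0.26 in ob/ob vehicle (adjusted p = 0.186), and by 0.97 ± 0.26 between wild type and enarodustat (adjusted p = 0.0502), just outside the threshold. Usp18, which removes ISG15 and restrains the type I receptor, had levels of 0.34, 0.35 and -0.17, then 1.08, 1.30 and 0.76, then 1.09, 1.44 and 0.74. The ob/ob groups were alike and both lay above wild type. Its changes were 0.87 ± 0.23 in ob/ob vehicle (adjusted p = 0.0565), 0.05 ± 0.23 between the ob/ob groups and 0.92 ± 0.23 between wild type and enarodustat (adjusted p = 0.0402). The last depended on every wild-type array and on replicates 1 and 2 of both ob/ob groups (without one of them, adjusted p from 0.0508 to 0.104).

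Trim25, the ubiquitin ligase that activates RIG-I, was the one member with fitted changes below 0 in all 3 comparisons. Its levels were 4.44, 4.49 and 4.54 in wild type, 4.49, 4.48 and 4.30 in ob/ob vehicle and 4.33, 4.10 and 4.15 in enarodustat. Every enarodustat array was below every wild-type array, which 14% of all features also showed, and the change of -0.30 ± 0.11 was not called (adjusted p = 0.130). With another background correction, normexp, this single member was called lower. In ob/ob vehicle the change was -0.06 ± 0.11, and it was 0.0035 when arrays were scaled on their median.

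The interferon-induced GTPases of the Gbp and Irg families coat vacuoles that hold intracellular pathogens. Gbp2 had levels of 1.13, 1.12 and 1.04 in wild type, 1.79, 1.63 and 1.72 in ob/ob vehicle and 1.59, 2.55 and 1.71 in enarodustat. The ob/ob vehicle arrays were all above wild type, and in enarodustat replicate 2 alone was above the ob/ob vehicle range. Gbp2 changed by 0.62 ± 0.23 in ob/ob vehicle (adjusted p = 0.144) and was 0.86 ± 0.23 higher in enarodustat than in wild type (adjusted p = 0.0487). That call was lost without any one wild-type or ob/ob vehicle array or enarodustat replicate 3 (adjusted p from 0.0715 to 0.117). Igtp had levels of 1.35, 1.33 and 1.46 in wild type, 1.91, 1.92 and 1.86 in ob/ob vehicle and 1.76, 3.73 and 2.32 in enarodustat. The wild-type and ob/ob vehicle arrays were tightly grouped and did not overlap, while the enarodustat arrays spanned nearly 2 log2 units. The fit shares one estimate of the spread over the groups, and the change of Igtp in ob/ob vehicle was 0.51 ± 0.41 (adjusted p = 0.498). Gbp3, Gbp7 and Irgm1 were not called, with changes of 0.59 ± 0.42, 0.32 ± 0.22 and 0.44 ± 0.31 in ob/ob vehicle and 1.15 ± 0.42, 0.56 ± 0.22 and 1.04 ± 0.31 between wild type and enarodustat.

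Psmb8 and Psmb9 are catalytic subunits of the immunoproteasome, and Tap1 is part of the transporter that carries its peptides to class I molecules. Psmb8 had levels of 1.58, 1.31 and 1.22 in wild type, 2.09, 2.12 and 2.05 in ob/ob vehicle and 1.99, 3.06 and 2.45 in enarodustat. The ob/ob arrays of both groups lay above wild type. Psmb8 changed by 0.72 ± 0.24 in ob/ob vehicle (adjusted p = 0.116) and was 2.19-fold higher in enarodustat than in wild type (1.13 ± 0.24, adjusted p = 0.0234), a call that needed wild-type replicates 2 and 3 and enarodustat replicate 3 (without one of them, adjusted p from 0.0643 to 0.0749). Psmb9 had levels of 1.59, 1.50 and 1.59, then 1.92, 2.03 and 1.91, then 1.97, 3.34 and 2.37, with the same lack of overlap with wild type. Its changes were 0.39 ± 0.29 (adjusted p = 0.462) and 1.00 ± 0.29 (adjusted p = 0.0675). Those of Tap1 were 0.29 ± 0.36 and 0.96 ± 0.36, also without a call.

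Cxcl10, the chemokine that draws activated T cells, was the most variable member. Its levels were -1.28, -1.38 and -1.79 in wild type, -0.16, -0.87 and -1.91 in ob/ob vehicle and -1.03, 0.75 and -1.56 in enarodustat. Replicate 3 of each ob/ob group was within or below the wild-type range. No change of Cxcl10 was called (0.50 ± 0.61, 0.37 ± 0.61 and 0.87 ± 0.61 in the 3 comparisons, adjusted p from 0.402 to 0.899), and the SE of 0.61 is the largest among the 35 members.

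Of the other induced genes, Parp14, an ADP-ribosyltransferase, had levels of 2.08, 2.17 and 1.83 in wild type, 2.99, 2.72 and 2.42 in ob/ob vehicle and 2.80, 3.08 and 2.57 in enarodustat. Both ob/ob groups lay above wild type and overlapped with each other. Its changes were 0.68 ± 0.19 in ob/ob vehicle (adjusted p = 0.0652) and 0.79 ± 0.19 between wild type and enarodustat (adjusted p = 0.0344). Xaf1, a pro-apoptotic protein, had levels of 2.78, 2.75 and 2.64, then 3.33, 3.34 and 2.72, then 3.45, 3.84 and 3.24. Its ob/ob vehicle replicate 3 was within the wild-type range, and its enarodustat arrays were above it (0.78 ± 0.21, adjusted p = 0.0480). Ifi35 had levels of 4.12, 4.02 and 3.82, then 4.38, 4.35 and 4.40, then 4.34, 4.45 and 4.42. The ob/ob arrays were within 0.11 of each other and above wild type (0.42 ± 0.11 in enarodustat, adjusted p = 0.0478). Each of these calls depended on single arrays. Parp14 lost it without any one wild-type array, ob/ob vehicle replicate 2, enarodustat replicate 1 or enarodustat replicate 2 (adjusted p from 0.0560 to 0.0937), Xaf1 without any array but ob/ob vehicle replicate 3 (from 0.0571 to 0.122), and Ifi35 without any array (from 0.0502 to 0.122). Between wild type and enarodustat, second probes of Parp14 and Xaf1 changed by 0.74 and 0.41 (limma on all probes, adjusted p = 0.0966 and 0.272), without a call. That of Ifi35 changed by 0.46 and was called (adjusted p = 0.0331). Ifi44 was not called, with changes of 0.27 ± 0.34 and 0.71 ± 0.34.

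Enarodustat replicate 2 was the highest of its group for 32 of the 35 members (91.4%), where it was the highest for 33.4% of all features. Its level minus the mean of replicates 1 and 3 had a median of 0.57 over the members and -0.02 over all features. The gap was largest for Cxcl10 at 2.04, and its median was 1.28 over the 5 GTPases, led by Igtp at 1.69 and Gbp3 at 1.50, and 1.17 over the peptide processing genes, led by Tap1 at 1.44. Over all features the 95th percentile of the gap was 0.82 and the 99th was 1.96. The median gap was 0.31 for the sensors, 0.52 for the transcription factors, 0.52 for the oligoadenylate synthetases and 0.42 for the antiviral effectors. Single genes of other roles also lay beyond the 95th percentile, with Zbp1 at 1.11, Ifi44 at 1.02, Ifit1 at 0.95 and Rsad2 at 0.91, while Gbp7 of the GTPases, at 0.71, did not. Ifit2 and Trim25 had gaps below 0, at -0.36 and -0.14. These are values of 1 array and carry no test.

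On the same array the mean of the podocyte markers was 4.79, below the 5.32 and 5.45 of the other enarodustat arrays, the tubule marker mean was 2.26 against -0.22 and -0.27, and the monocyte and macrophage marker mean was 0.71 against 1.07 and 0.27. The array with the most tubule signal, wild-type replicate 3, was the lowest of all 9 for 20 of the 35 members. Wild-type replicates 1 and 2 were the lowest for 6 and 4. The part of these cell types in the level of the members was not tested.

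Further genes of the interferon pathway, 128 in all, were described from lists by role, and 111 of them were tested. In ob/ob vehicle 10 rose and 2 fell, with a median change of 0.29. Of all features 4.88% were called higher and 2.66% lower, with a median change of 0.02. The leading genes that rose were Ptpn6, a phosphatase that restrains cytokine receptors (1.53 ± 0.17, adjusted p = 0.00282), Lgals3bp (1.15 ± 0.14, adjusted p = 0.00390), Slfn2 (1.45 ± 0.20, adjusted p = 0.00488), and the factors Irf5 (1.39 ± 0.21, adjusted p = 0.00707) and Irf8 (0.79 ± 0.12, adjusted p = 0.00818). Ly6a, Tor3a, Sting1, Stat4 and Ifi27 rose by 0.52 to 1.47. Ptpn6, Irf5 and Irf8 are best known from leukocytes, but the called genes were not sorted by cell type. The part of leukocytes in the changes of these genes was not tested. The genes that fell were Tlr7, an endosomal RNA sensor (-0.94 ± 0.17, adjusted p = 0.0130), and Gbp5 (-0.64 ± 0.15, adjusted p = 0.0382). Between the ob/ob groups none of the 111 was called. Between wild type and enarodustat 30 were higher, led by Lgals3bp, Ptpn6, Slfn2, Ly6a, Irf8, Ly6e, Dtx3l, Irf5, Apol9b and Parp9, and the same Tlr7 and Gbp5 were lower. In that comparison 6.11% of all features were called higher and 4.1% lower.

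No listed interferon ligand or receptor gene was called in any comparison. Of 21 listed interferon ligands 11 were tested and none was called, and the probes of Ifnb1 and Ifng did not pass the filter on dim probes. In ob/ob vehicle the type I receptor chains Ifnar1 and Ifnar2 changed by -0.15 ± 0.17 (adjusted p = 0.631) and 0.60 ± 0.18 (adjusted p = 0.0861), and the interferon gamma receptor chains Ifngr1 and Ifngr2 by -0.10 ± 0.16 (adjusted p = 0.760) and 0.50 ± 0.18 (adjusted p = 0.128).

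Markers of monocytes and macrophages moved with the members between wild type and ob/ob. Of 18 monocyte and macrophage markers 11 rose in ob/ob vehicle and 17 lay above 0, and their mean log2 level was -0.86 ± 0.34 in wild type, 0.97 ± 0.50 in ob/ob vehicle and 0.68 ± 0.40 in enarodustat (SD, n = 3). Their summed level, relative to the 75th percentile signal, was 68.4 to 76.7 on the wild-type arrays, 103 to 111 in ob/ob vehicle and 79.5 to 101 in enarodustat. That sum includes Itgam at a wild-type mean of 5.46, which changed by -0.17 in ob/ob vehicle. Adgre1, the macrophage protein F4/80, went from -3.94 ± 0.37 in wild type to -1.11 ± 0.89 in ob/ob vehicle and -1.91 ± 0.76 in enarodustat (SD, n = 3), and Cd68 from -0.95 ± 0.33 to 0.43 ± 0.41 and 0.21 ± 0.32. From vehicle to enarodustat 15 of the 18 lay below 0, with a median change of -0.26, where 32 of 35 members lay above 0. Over all features, 44.8% lay above 0 in that comparison, with a median of -0.03. Of all features 4.88% were called higher in ob/ob vehicle, where 52.2% lay above 0. Between wild type and enarodustat 6.11% were called higher. Of 10 tested T and NK cell markers 2, Lck and Nkg7, rose in ob/ob vehicle and 5 were higher in enarodustat than in wild type. Cd3e had group means of 0.98, 0.87 and 0.99. Of 6 tested B and plasma cell markers none rose in ob/ob vehicle and 1 was higher in enarodustat than in wild type. Of 7 neutrophil markers 1 rose in ob/ob vehicle and 3 lay below 0, and of 6 tested plasmacytoid dendritic cell markers none rose and 3 lay below 0. The neutrophil list includes Csf3r at a wild-type mean of 6.96. The plasmacytoid list includes Siglech and Pacsin1 at 7.83 and 5.22, and Klk1, which ran from 0.28 to 5.13 over the arrays. Whether these lists read these cells in glomeruli was not tested. Lrp2 of the proximal tubule had group means of 0.92 ± 2.14, -1.45 ± 1.54 and -0.08 ± 1.89. Adgre1, Cd68, Cd3e and Lrp2 were well above background on every array, and the part of these cells in the change of the members was not tested. In whole glomeruli, more cells of a type and more RNA per cell cannot be told apart.

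**Figure D4:**
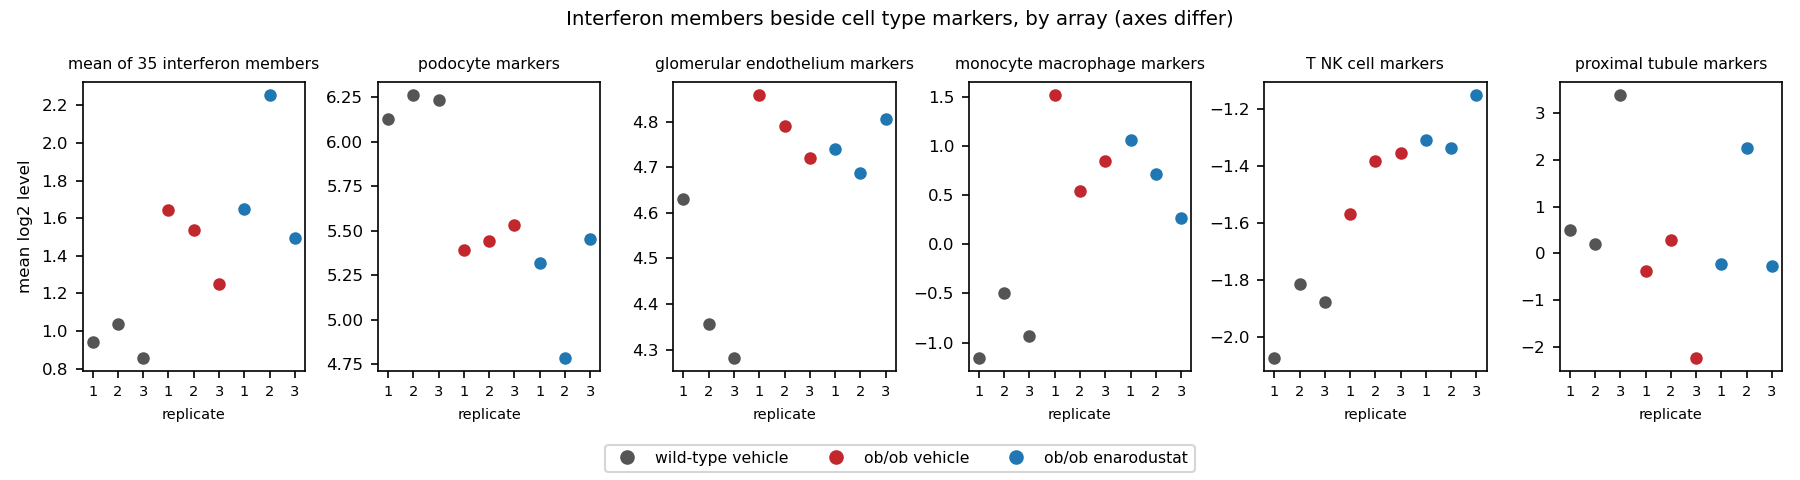
Mean log2 level of the 35 interferon response genes and of 5 sets of cell type markers on each array, by group and replicate, on axes that differ between panels. The members and the monocyte and macrophage markers are lower on all wild-type arrays than on all ob/ob arrays, and enarodustat replicate 2 is highest for the members and second highest for the tubule markers.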

How the data were processed

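Total RNA of glomeruli isolated with magnetic beads was hybridised to Agilent arrays in one colour, Cy3, per the labels' protocols. The authors extracted the deposited spot intensity, on a linear scale and background-subtracted, using Feature Extraction 11.5.1.1 of Agilent, as the file headers and the submitters' processing notes give it, and the notes also name limma without its role. Probe coordinates are mm9, per the file headers. The deposited value table holds log2 values of the authors. Each of its columns followed log2 of the processed signal of its array minus about the 75th percentile (correlation 1), with no centring of genes, and column medians were -3.10 to -2.93. It served as an alternative.

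Control spots and outlier spots were left out and repeated spots averaged. Log2 of the processed signal minus the array's 75th percentile was fitted with limma 3.58.1 in R 4.3.3 (lmFit, contrasts.fit, eBayes) over 3 groups and all 9 arrays, and p-values were adjusted by Benjamini-Hochberg over 24151 features, called under 0.05. A probe was kept when at least 1 group had it well above background on all its arrays, and a gene was read from its probe with the highest mean. Probes were named through GRCm38.p6 by accession (33903), symbol (9458) or synonym (488), 2103 kept the file's name and 10653 had none. No exon or UTR was assigned to a probe. Promoter windows are RefSeq's. Figures used matplotlib 3.10.9 in Python 3.11.15. The fit was tested on simulated data.

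Alternatives covered the normalization, background correction, scaling, dim-probe filter, probe choice, the value table, array weights, slide, replicate block, a tubule covariate, the arrays in the fit and each array left out. Per-array values are given for members called in any comparison, for Irf7, Stat2, Isg15, Ifit1 and Cxcl10 and for the brightest member of each role. Other pathway genes are named when called, up to 12 a comparison by smallest p, with the 4 receptor chains always named, and some items under this rule are not reported here. The number of arrays limits the precision. The members and lists were chosen with earlier results of these data known.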

Additional observations from a re-analysis of the deposited data

How the results depend on the processing

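The counts of members called higher in ob/ob vehicle and between wild type and enarodustat, 5 and 15, were 2 and 7 with no filter on dim probes. With array weights 12 rose in ob/ob vehicle, and with the tubule marker mean as a covariate 1 did, Oasl2, although the median change was then 0.77 against 0.51 and 24 members against 16 had an unadjusted p under 0.05. Leaving out each array in turn gave 2 to 8 in ob/ob vehicle and 7 to 14 between wild type and enarodustat. Without the pair of arrays highest in tubule markers, chosen after seeing the data, the latter was 5. For wild type and enarodustat it was 19 with the tubule covariate and 20 with array weights. With normexp background correction 1 member, Trim25, was called lower between wild type and enarodustat. Fits that left arrays out had fewer arrays, and the fit with no filter on dim probes had more features. The cause of these differences was not tested. No member was called between the ob/ob groups under any alternative, where the median change ran from 0.13 to 0.50 and the number above 0 from 25 to 33. Over 23 settings, the main fit among them, Oasl2 kept both of its calls, and Bst2 lost its call in ob/ob vehicle with the tubule covariate alone (adjusted p = 0.0639). Irf1, Bst2 and Ifitm3 kept their calls between wild type and enarodustat, and no member changed direction in a comparison in which it was called. Of members not called in the comparison at hand, the sign changed in 36 cases between the ob/ob groups and 9 in ob/ob vehicle. The 36 include members called in other comparisons, such as Ddx58 and Usp18. Correlations of deviations ran from -0.31 to 0.27 between arrays of the same replicate number and from -0.37 to 0.48 between arrays of unlike number. With 3 arrays a group these values cannot decide whether the numbers pair the arrays. With a replicate block the counts were 6 and 14. Oas3 and Mx1, not well above background on all arrays of any group, limit what the list shows.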
